A study of Homo sapiens with 36 samples.

Results

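The comparison described here sets the effect of a high dose of Ota on gene expression against the effect of a high dose of Aa, both after 24 h. It was chosen from the sample titles and takes 12 of the 36 arrays of the series, in 4 groups of 3 biological replicates. These were HK-2 cells given the high dose of Ota for 24 h, their Ota vehicle controls, HK-2 cells given the high dose of Aa for 24 h, and their Aa vehicle controls. HK-2 is an immortalized line of human proximal tubule epithelium, the kidney cell layer that takes up and secretes many toxins. All 4 groups grew in the same defined medium with EGF, hydrocortisone, insulin, transferrin and selenite, and were treated close to confluence. The compounds carry only these short names, and their doses are not stated, so whether the high doses were matched is not known and a difference between them holds for these doses alone. Cells were treated in culture as 1 line, so the replicates are cultures and not donors.

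The value compared for each gene is a difference of differences on the log2 scale: Ota high dose minus Ota control, less Aa high dose minus Aa control. A positive value means that the gene stood relatively higher after Ota, whether because it rose with Ota, fell with Aa, or both. Each effect was therefore read beside it. A gene was called where limma's adjusted p was under 0.05, with Benjamini-Hochberg adjustment over the 10960 genes tested. "Rose", "fell", "higher" and "lower" are used of called genes.

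As background, kidney cells meet toxic damage with a small set of known programmes. p53, a transcription factor stabilised by DNA damage, switches on inhibitors of the cell cycle, repair genes and genes of cell death. NRF2 switches on antioxidant enzymes, ATF4 enzymes of amino acid supply, and the unfolded protein response the chaperones of the endoplasmic reticulum (ER). A separate property of a gene is its span: RNA polymerase II needs longer to copy a long gene, and a lesion or pause anywhere along it can stop a transcript from being finished.

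Of the markers fixed for the proximal tubule, 4 of 10 exceeded a log2 value of 4, the level taken as background, on all 6 control arrays, and 6 did so on none, LRP2 and CUBN among them. All 4 epithelial markers exceeded it and 0 of 9 leukocyte markers did. On all 6 control arrays 4 of 10 fibroblast, 3 of 6 podocyte, 3 of 13 distal nephron and 1 of 10 endothelial markers also exceeded it. The markers therefore do not single out the proximal tubule. The mean of the leukocyte markers was 3.14 to 3.38 on Ota high dose arrays, against 2.41 to 2.43 in Ota controls, and 2 of them, ITGAM and FCER1G, stood at least 1.95-fold and at least 5.55-fold higher with Ota. Both were tested only because of their Ota high dose arrays, and all their controls lay under the background level. Their part in the results was not tested. The Ota high dose arrays stood apart from the rest. The array median of the tested genes averaged 7.67 ± 0.17 with Ota (SD, n = 3), against 8.30 ± 0.06 in Ota controls, whereas the Aa high dose arrays had 8.37 ± 0.05, against 8.29 ± 0.01 in Aa controls. The median over all probe sets, most of them under the background level, went the other way, at 3.08 ± 0.04 with Ota, against 2.93 ± 0.02 in Ota controls. Replicates of the Ota high dose correlated at 0.950 to 0.982 over genes, those of the other 3 groups at 0.985 to 0.992. In bulk RNA, fewer cells of a kind and less RNA per cell cannot be told apart.

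The effects of the compounds differed in 6673 genes, 60.9% of those tested. Of these, 2081 stood higher after Ota relative to Aa (19%) and 4592 lower (41.9%), of which 1173 (10.7%) and 3608 (32.9%) by at least 2-fold. The 3 paired changes with Ota all lay above those with Aa in 2649 genes (24.2%) and below them in 4939 (45.1%). Ota itself changed 7237 genes (66%), with 2441 higher (22.3%) and 4796 lower (43.8%). At least 2-fold, 897 rose (8.18%) and 3260 fell (29.7%). Aa changed 5084 genes (46.4%), with 2692 higher (24.6%) and 2392 lower (21.8%), of which 1210 (11%) and 1138 (10.4%) by at least 2-fold. The balance of directions in the difference depended on scaling. With quantile normalization 2762 genes were higher and 3863 lower, and with every array shifted to the same median 4657 were higher and 2849 lower. The median difference over all tested genes was -0.35 as deposited, -0.12 after quantile normalization and 0.36 after the shift, and gene lists are read against these values. List counts given with shifted arrays are to be set against 4657 higher and 2849 lower of the 10960 genes, not against 19% and 41.9%. The controls of the compounds also differed, in 546 genes (4.98%), with 348 higher in Ota controls (3.18%) and 198 lower (1.81%), 95 (0.867%) and 71 (0.648%) of them at least 2-fold. Of the 546, 311 were among the 6673. Control vehicle, culture and any array batch cannot be told apart there.

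Part of the genes called with both compounds moved the same way. Of the 3387 genes called with both, 2142 (63.2%) moved the same way and 1245 moved in opposite directions. These 3387 made up 46.8% of the genes called with Ota, beside 46.4% of all genes called with Aa. They made up 66.6% of those called with Aa, beside 66% of all genes called with Ota. The overlap of calls was thus near the shares over all genes. Across the 10960 genes the fitted changes with Ota and with Aa had a Pearson r of 0.239 and a Spearman rho of 0.191, given as a description, since genes are not independent replicates. Opposite movement was uneven on the deposited scale: 937 genes fell with Ota and rose with Aa, and 308 rose with Ota and fell with Aa. A change with Ota alone, with the difference itself called, was found in 897 genes that rose and 2192 that fell. The corresponding counts for Aa alone were 705 and 536. With arrays shifted to the same median, the order of the opposite patterns turned, and so did that of rises and falls with Ota alone. Those counts are given in the closing section on processing.

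**Figure D1:**
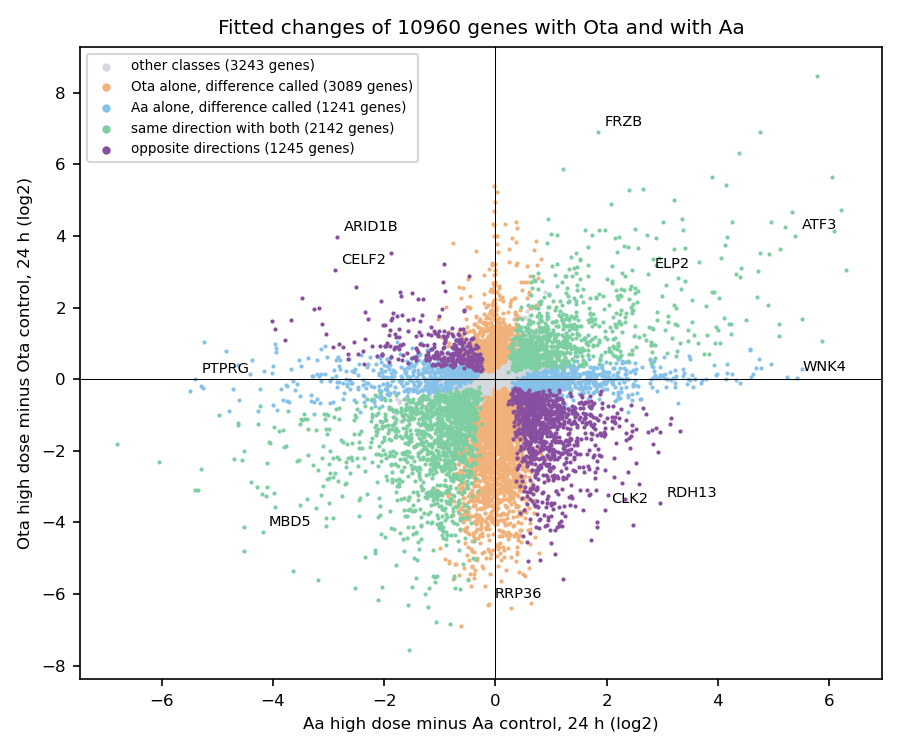
Fitted log2 change with the high dose of Aa (horizontal axis) against that with the high dose of Ota (vertical axis) at 24 h, 1 point per gene, coloured by response class. Points fill all 4 quadrants, with 1245 genes of opposite direction, most of them (937) in the lower right, where genes fell with Ota and rose with Aa. With arrays shifted to the same median, genes that rose with Ota and fell with Aa were the more numerous.

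Genes that rose with Ota and fell with Aa were led by ARID1B, a subunit of the SWI/SNF chromatin remodeller. Its level was 10.86, 10.90 and 10.08 with Ota, against 6.53, 6.65 and 6.80 in Ota controls. It was 3.38, 3.69 and 3.42 with Aa, against 6.25, 6.83 and 5.94 in Aa controls. No array of a treated group overlapped its controls, and the Aa arrays lay under the background level. The change was 3.96 ± 0.28 with Ota (SE from limma, as in all that follow) and a fall of at least 5.06-fold with Aa. The difference was 6.80 ± 0.40 (adjusted p = 7.61e-14, 6.30 with values at or under 4 set to 4).

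CELF2, an RNA-binding regulator of splicing, followed the same pattern. It had 8.79, 7.42 and 7.82 with Ota, against 5.26, 4.59 and 5.07 in Ota controls, and 3.19, 2.72 and 3.23 with Aa, against 5.32, 5.51 and 6.96 in Aa controls. The groups again did not overlap, and the difference was 5.92 ± 0.55 (adjusted p = 4.01e-10, floored 4.97). BNC2, a zinc finger protein, rose by 2.26 ± 0.46 with Ota and changed by -3.48 ± 0.46 with Aa (floored -3.01). The GATA-type repressor TRPS1 rose by 2.19 ± 0.30 with Ota and fell by 2.05 ± 0.30 with Aa. ROR1, a receptor of the Wnt5a pathway, rose by 1.98 ± 0.38 with Ota and fell at least 5.27-fold with Aa. The kinesin KIF26B, the cyclic nucleotide phosphodiesterase PDE10A and CYFIP2, a subunit of the actin-regulating WAVE complex, rose by 1.96, 1.88 and 1.85 with Ota, and their differences were 5.21 (floored 4.14), 4.22 and 3.69.

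Genes that fell with Ota and rose with Aa included RDH13, a mitochondrial retinol dehydrogenase. It had 3.45, 3.30 and 4.33 with Ota, against 7.01, 6.92 and 7.52 in Ota controls, and 8.85, 9.20 and 8.36 with Aa, against 6.29, 5.56 and 5.67 in Aa controls. All Ota arrays lay below and all Aa arrays above every control, although its Ota controls also stood above its Aa controls, by 1.31. The difference was -6.42 ± 0.45 (adjusted p = 2.13e-12, floored -6.00). CLK2, a kinase of SR splicing factors, had 3.92, 3.58 and 4.50 with Ota, against 7.60, 7.54 and 7.79 in Ota controls, and 9.74, 9.68 and 9.75 with Aa, against 7.95, 7.77 and 7.55 in Aa controls. Its difference was -5.61 ± 0.32 (adjusted p = 4.41e-14, floored -5.44).

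SLC22A15, a carrier of the organic ion transporter family, fell at least 4.42-fold with Ota and rose by 2.48 ± 0.26 with Aa. The centrosomal gene CEP78 fell at least 5.18-fold with Ota and rose by 2.58 ± 0.20 with Aa. IFRD1, the actin nucleation factor WHAMM, the bZIP protein CREBZF and CCDC134 had differences of -5.19, -4.87, -4.87 and -5.25. CYP1B1, a cytochrome P450 under control of the aryl hydrocarbon receptor, also belonged here. It had 6.74, 6.36 and 6.72 with Ota, against 8.64, 8.78 and 8.73 in Ota controls, and 10.70, 11.16 and 10.50 with Aa, against 8.82, 9.14 and 8.83 in Aa controls. None of the 4 groups overlapped, with the Ota arrays lowest and the Aa arrays highest, and the difference was -3.96 ± 0.30 (adjusted p = 1.08e-11).

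**Figure D2:**
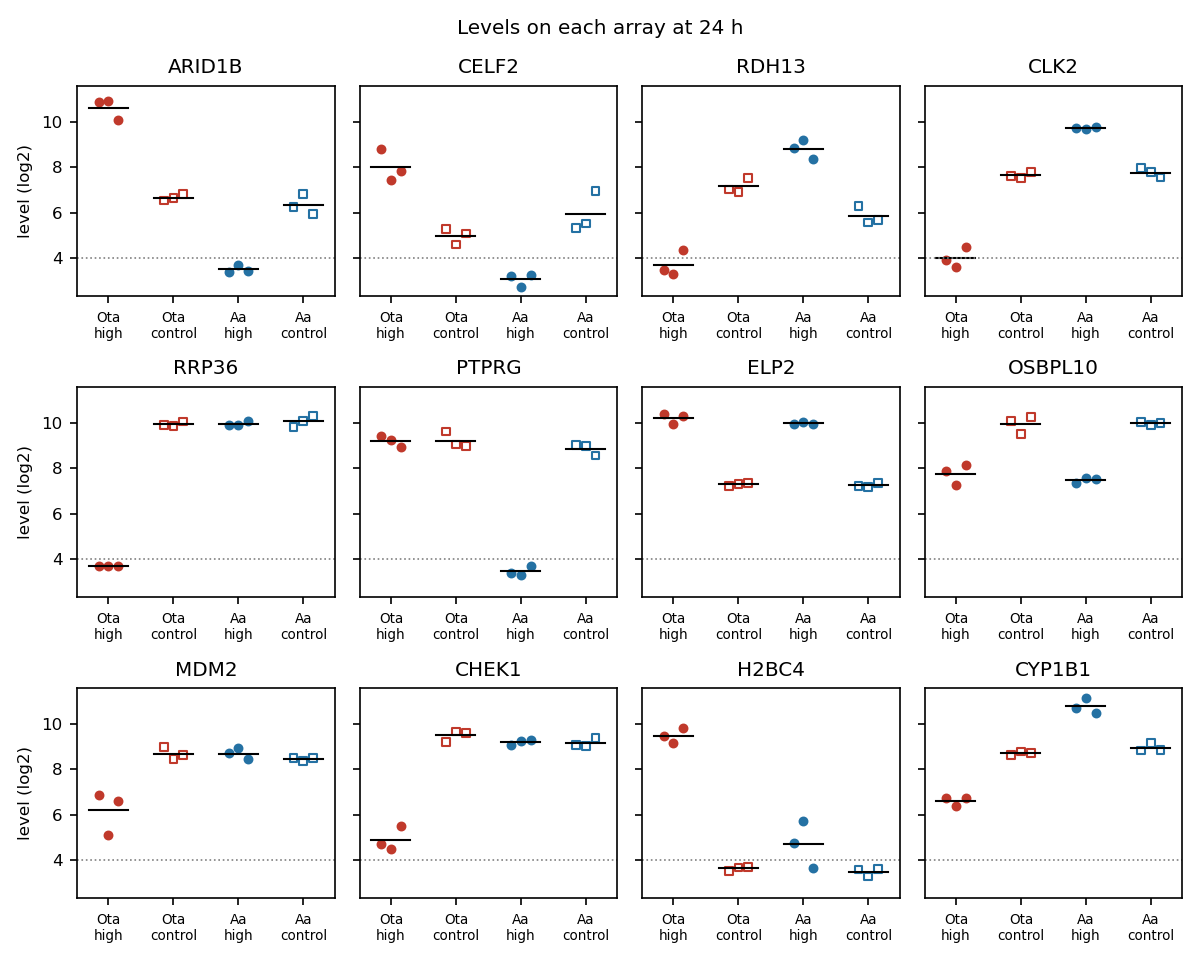
Log2 level on each array (filled circles, high dose; open squares, control; bars, group means of 3; dotted line, background level of 4) for 12 genes at 24 h. ARID1B and CELF2 went up with Ota and down with Aa, RDH13, CLK2 and CYP1B1 the other way, RRP36, MDM2 and CHEK1 down with Ota alone, PTPRG down with Aa alone, and ELP2 and OSBPL10 moved together with both.

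The largest differences of all came in part from a change with 1 compound. RRP36, a ribosome biogenesis factor, had 3.67, 3.67 and 3.67 with Ota, against 9.91, 9.87 and 10.06 in Ota controls, and 9.89, 9.89 and 10.07 with Aa, against 9.82, 10.08 and 10.31 in Aa controls. It fell at least 61.8-fold with Ota and its change with Aa was -0.12 ± 0.19, a difference of -6.16 ± 0.27 (adjusted p = 2.17e-16, floored -5.83). The NF-kB scaffold CARD10 changed by -6.26 ± 0.39 with Ota (floored -5.47) and had 0.63 ± 0.39 with Aa. TIMM23B, of the mitochondrial import machinery, fell at least 18.1-fold with Ota and rose by 1.22 ± 0.20 with Aa.

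The nuclear pore gene NUP85, the ATP synthase assembly factor TMEM70 and the deubiquitinase USP25 had differences of -6.02 (floored -5.77), -5.65 and -5.59, and IGFN1 one of -5.79. PCDH7, a protocadherin, fell at least 69.3-fold with Ota by the probe set used, but 2 other probe sets of the gene were called the other way in the difference. CTPS1 and UMPS, enzymes of pyrimidine synthesis, had differences of -5.14 ± 0.55 (floored -4.57) and -4.83 ± 0.57 (floored -4.51), with some Ota arrays of both at background. CTPS1 was also lower with Aa (-1.21 ± 0.39), while UMPS was near its controls after Aa (-0.18 ± 0.40). The N-acetylglucosamine kinase NAGK and the membrane protein insertase subunit EMC2 changed by -5.78 ± 0.40 (floored -5.46) and -5.43 ± 0.29 with Ota, with -0.44 and -0.38 after Aa.

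In the other direction, PTPRG, a receptor tyrosine phosphatase, had 9.44, 9.26 and 8.94 with Ota, against 9.62, 9.05 and 8.99 in Ota controls, and 3.37, 3.29 and 3.67 with Aa, against 9.01, 8.96 and 8.56 in Aa controls. Only the Aa high dose arrays stood apart. The gene fell at least 28.7-fold with Aa, its Ota arrays overlapped their controls (adjusted p = 0.999), and the difference was 5.40 ± 0.70 (adjusted p = 1.96e-07, floored 4.84). SCFD2 and PRKCB, a protein kinase C, fell at least 16-fold and at least 12.5-fold with Aa. The RNA helicase DDX10, the ephrin receptor EPHB1 and the calcium channel subunit CACNA2D1 rose with Ota by 1.64, 1.63 and 1.09, and changed with Aa by -3.67, -4.03 and -3.78. ARHGAP6 and PSD3 fell at least 21.5-fold and 19.2-fold with Aa, SMYD3 and LRBA changed by -4.72 and -4.23, and the changes of these 4 genes with Ota lay between -0.33 and -0.20.

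Some genes under the background level in controls were above it with 1 compound. Those that passed the filter only through that compound's arrays, such as RAB30 and WNK4, had to differ, and their values are a description. RAB30, a Golgi GTPase, had 8.34, 7.93 and 7.83 with Ota, while all its other arrays lay between 2.74 and 2.92. It rose at least 16.4-fold. NPR3, the clearance receptor of natriuretic peptides, rose at least 12.4-fold with Ota, and the ubiquitin ligase LNX1 at least 11.8-fold. NEDD4L, a ubiquitin ligase that removes the epithelial sodium channel from the membrane, rose by 3.57 ± 0.19 with Ota and had -0.35 ± 0.19 with Aa, while its controls differed by 0.66. FRZB, a secreted Wnt antagonist, rose at least 41.5-fold with Ota and at least 1.28-fold with Aa.

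With Aa alone, WNK4, a kinase that controls renal salt transport, rose at least 13.1-fold, and PPP4R1L at least 18.8-fold. AGBL2, OIT3 and TIMD4, an immune receptor for phosphatidylserine, rose at least 16-fold, 13.8-fold and 13.3-fold. All 3 Ota arrays of WNK4, PPP4R1L, AGBL2, OIT3 and TIMD4 lay under the background level.

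Shared responses were taken as genes called the same way with both compounds, with the difference not called. There were 518 that rose and 672 that fell. Because an uncalled difference does not show equal effects, its interval was read too: for 369 and 357 of them the 95% interval of the difference lay within 1 log2 unit each way, and of these 77 and 84 changed at least 2-fold with both. ELP2, a subunit of the Elongator complex of tRNA modification, had 10.40, 9.94 and 10.30 with Ota, against 7.22, 7.30 and 7.34 in Ota controls, and 9.97, 10.05 and 9.95 with Aa, against 7.20, 7.18 and 7.34 in Aa controls. The high dose groups overlapped each other and neither overlapped its controls. ELP2 rose by 2.93 ± 0.14 and 2.75 ± 0.14, with a difference of 0.18 (95% interval -0.23 to 0.59). With arrays shifted to the same median this difference was 0.89 and called (adjusted p = 0.000222), and with array weights 0.38 (adjusted p = 0.0391), so how closely shared genes match depends on the scale.

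THAP10, the poly(A) polymerase PAPOLG, the axonemal dynein gene DNAI4 and the helicase DDX52 rose with both, with differences of 0.03, -0.10, -0.09 and -0.38. Shifting the arrays gave THAP10 a called difference of 0.74 and turned that of PAPOLG to 0.62. Averaging all probe sets gave DNAI4 and DDX52 called differences of -0.56 and -0.64. KCNMB4, a subunit of calcium-activated potassium channels, rose at least 4.36-fold with Ota and at least 5.04-fold with Aa. MXD1, a partner of MAX that opposes MYC, and the endosomal sorting nexin SNX1 rose by 2.31 and 2.53 with Ota and by 2.19 and 2.26 with Aa, but other probe sets of both genes were called lower in the difference, and the controls of MXD1 differed by 1.06.

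Among the shared falls, OSBPL10, an oxysterol-binding protein, had 7.87, 7.27 and 8.15 with Ota, against 10.07, 9.51 and 10.27 in Ota controls, and 7.37, 7.58 and 7.53 with Aa, against 10.03, 9.91 and 10.01 in Aa controls. It fell by 2.19 ± 0.19 and 2.49 ± 0.19, with a difference of 0.30 (95% interval -0.25 to 0.85). That difference was called after quantile normalization (0.73), the shift (1.01) and averaging of probe sets (0.47). VEPH1, GYG2, a glycogenin that primes glycogen, and STK39, a kinase downstream of WNK kinases, had differences of 0.00, -0.07 and 0.06. MYO10, the myosin of filopodia, had 0.06 by its main probe set and 1.28 (called) over all its sets. The piRNA factor TDRKH fell at least 4.65-fold with Ota and at least 5.62-fold with Aa. CTHRC1, a secreted protein of remodelling tissue, had a difference of 0.02, and its Ota controls lay below its Aa controls (-0.91). MBD5 fell at least 10.0-fold with Ota and changed by -4.18 with Aa (floored -3.60), though 1 further probe set gave a called difference of the other sign.

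Among genes above background, long genes fell with Aa more often than with Ota. Spans were taken from RefSeq annotation (GRCh38.p14) for 10952 of the 10960 genes, and the span bins were chosen after the values were seen. Among the 350 genes spanning over 300 kb, the median change with Ota was -0.20 and that with Aa -1.96. The median difference was 1.69, or 1.36 with values at or under 4 set to 4. These medians depend on which genes are counted: without the filter on low values the Ota median was 0.057, the Aa median -0.067 and the difference 0.22, and with all probe sets of a gene averaged they were -0.11, -1.28 and 1.24. In this bin 35.4% of genes were lower with Ota, set against 43.8% of all tested genes, and 81.4% were lower with Aa, set against 21.8% of all. The difference was called higher in 232 of the 350 (66.3%, with 19% over all genes). The 3 replicate pairs gave medians of -0.08, -0.24 and -0.18 for Ota and -2.11, -1.95 and -1.83 for Aa, which did not overlap.

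In genes of 100 to 300 kb the medians were -0.24 with Ota and -0.44 with Aa. In genes under 10 kb they were -0.34 with Ota and 0.04 with Aa, and the median difference was -0.51. Spearman's rho of span with change over genes was 0.06 for Ota and -0.24 for Aa, a description only. Levels in controls were near each other, with a median of 7.75 in the longest bin and 8.09 in the shortest. For the 162 longest genes with a mean control level above 8, the medians were -0.19 with Ota and -2.04 with Aa. The sign for Ota turned with scale, to 0.12 after quantile normalization and 0.43 after the shift, whereas that for Aa did not.

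**Figure D3:**
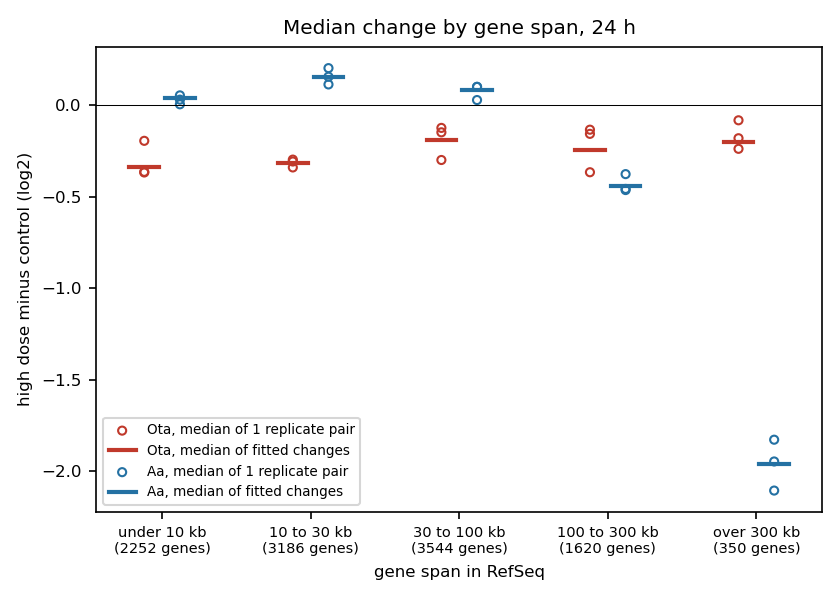
Median log2 change, high dose minus control at 24 h, of genes binned by RefSeq span; circles are the medians of single replicate pairs, bars those of fitted changes, red for Ota and blue for Aa. In genes over 300 kb the Ota median is -0.20 and the Aa median -1.96.

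A list of very long genes gave the same picture by name, though it overlaps these bins and is no separate support. Of its 56 tested members, 38 had a higher difference (67.9%, beside 19% of all genes) and 2 a lower one. Without 4 members that passed the filter through 1 group only, 38 of 52 were higher and 1 was lower. With Ota 23 fell (41.1%, beside 43.8% of all genes) and 6 rose (10.7%, beside 22.3%). With Aa 49 fell (87.5%, beside 21.8%) and 0 rose (24.6% of all). The list's median difference was 2.18, beside -0.35 over all genes. ARID1B, named above, is 1 of the 4 members that rose with Ota while they fell with Aa.

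The replication-dependent histones set the compounds apart in size rather than in direction. As background, these clustered genes are transcribed in S phase, and their mRNAs normally end in a stem-loop instead of a poly(A) tail. Of 21 listed genes, 10 were tested. Of these, H2AC8, H2BC4, H3C2 and H4C8 exceeded the background level on enough arrays only through the Ota high dose, so their being higher with Ota was fixed by the filter. The other 6 all rose with Ota (22.3% of all genes did), and in 5 of them the difference was higher (19% of all). Over the 10 genes, 7 rose with Aa (70%, beside 24.6% of all). Because histone genes are nearly identical in sequence, a probe set may read several of them, and values of single members are uncertain. H2BC4 had 9.45, 9.17 and 9.82 with Ota, against 3.51, 3.67 and 3.68 in Ota controls, and 4.74, 5.69 and 3.65 with Aa, against 3.58, 3.27 and 3.60 in Aa controls. Every Ota array stood far above the rest, and 1 Aa array lay within the range of the Ota controls. The rise was at least 44.6-fold with Ota and at least 1.62-fold with Aa, with a difference of 4.65 ± 0.62. These values of H2BC4 are a description, since the filter fixed its being higher with Ota.

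H2AC8 rose at least 5.48-fold with Ota and was under the background level on all Aa arrays. H2AC17, which is outside the list, rose at least 11.6-fold with Ota. It too passed the filter only through the Ota high dose arrays, so its being higher was fixed in advance. The median change over the 10 tested histones, the 4 fixed by the filter included, was 3.01 with Ota and 0.99 with Aa.

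The octamer ATTTGCAT, read on both strands, is a known element of H2B promoters. It was found in the windows from 250 bases before to 50 after the start of 6 of the 10 tested histone genes, and in 1.77% of all 35116 windows of RefSeq (GRCh38.p14). The first count is of genes with a match in any window and the second of windows, so the units are unlike. A match is a description of the letters and shows neither binding nor a cause. The windows of H2BC4 (chr6:26123877-26124176, minus strand) and H2AC8 (chr6:26216671-26216970, plus strand) are shown with the match in capitals, H2BC4 as the member with the largest difference and H2AC8 as one of another stretch of the cluster that was above background only with Ota (ATGCAAAT is the octamer on the other strand). The H2BC4 window shares 255 bases with that of its divergent neighbour H2AC6, which rose by 5.28 ± 0.36 with Ota and 2.40 ± 0.36 with Aa. Both genes are among the 6, so their matches may not be separate.
H2BC4: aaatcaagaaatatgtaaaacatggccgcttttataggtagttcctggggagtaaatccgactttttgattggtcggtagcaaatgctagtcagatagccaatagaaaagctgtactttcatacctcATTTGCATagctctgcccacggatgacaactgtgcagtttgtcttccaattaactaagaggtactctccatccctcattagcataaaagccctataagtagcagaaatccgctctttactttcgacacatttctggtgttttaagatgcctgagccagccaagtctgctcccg
H2AC8: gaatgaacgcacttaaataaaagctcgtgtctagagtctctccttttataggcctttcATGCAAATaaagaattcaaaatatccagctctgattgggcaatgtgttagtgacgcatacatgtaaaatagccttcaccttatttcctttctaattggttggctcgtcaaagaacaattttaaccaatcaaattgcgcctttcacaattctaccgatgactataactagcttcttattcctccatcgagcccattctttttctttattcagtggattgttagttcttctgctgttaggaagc

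Targets of p53 and genes of recombination repair were more often lower after Ota relative to Aa than tested genes in general. Of 27 tested p53 targets, 5 rose (18.5%, beside 22.3% of all genes) and 15 fell (55.6%, beside 43.8%) with Ota. With Aa 11 rose (40.7%, beside 24.6%) and 5 fell (18.5%, beside 21.8%). The difference was higher in 1 and lower in 19 (6 and 13 with shifted arrays), which is 70.4% lower, beside 41.9% of all genes. The list's median difference was -1.37, beside -0.35 over all genes. MDM2, the ubiquitin ligase that degrades p53, had 6.85, 5.11 and 6.60 with Ota, against 8.98, 8.45 and 8.61 in Ota controls, and 8.70, 8.92 and 8.45 with Aa, against 8.50, 8.35 and 8.50 in Aa controls. It fell only in the Ota arrays, and the difference was -2.74 ± 0.37 (adjusted p = 3.67e-07).

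CDKN1A, the cyclin-dependent kinase inhibitor p21, rose with both, by 0.65 ± 0.20 with Ota and 1.57 ± 0.20 with Aa. Its difference of -0.92 ± 0.28 (adjusted p = 0.00551) was -0.21 with shifted arrays and then not called (adjusted p = 0.509), and its Ota controls lay below its Aa controls (-0.75). GADD45A, a growth arrest gene, had 0.12 ± 0.30 with Ota and rose by 1.81 ± 0.30 with Aa, a difference of -1.68 (adjusted p = 0.00103). POLH, the polymerase that copies past ultraviolet lesions, fell at least 9.66-fold with Ota and had 0.02 ± 0.15 with Aa. The 1 p53 target with a higher difference was CYFIP2, described above. The damage recognition genes DDB2 and XPC, picked after their values were seen, fell by 2.81 and 0.85 with Ota and rose by 0.62 and 0.90 with Aa.

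Genes of recombination and Fanconi repair, which mend broken and crosslinked DNA, fell in 20 of 29 cases (69%, beside 43.8% of all genes) and rose in 3 (10.3%, beside 22.3%) with Ota. They rose in 12 (41.4%, beside 24.6%) and fell in 4 (13.8%, beside 21.8%) with Aa. Of the 29 genes, 8 moved in these opposite directions, as did 8.55% of all genes. The difference was lower in 20 (69%, beside 41.9% of all genes) and higher in 1 (14 and 6 with shifted arrays). The checkpoint kinase CHEK1 had 4.71, 4.47 and 5.50 with Ota, against 9.20, 9.66 and 9.60 in Ota controls, and 9.05, 9.26 and 9.30 with Aa, against 9.05, 9.03 and 9.37 in Aa controls. Its Ota arrays lay far under all others, with a difference of -4.65 ± 0.31 (adjusted p = 7.06e-13). The exonuclease EXO1 fell by 3.26 ± 0.22 with Ota and rose by 1.36 ± 0.22 with Aa. Nucleotide excision repair did not stand apart in this way: the difference was lower in 9 of 24 genes, or 37.5%, which is near the 41.9% of all genes, and with shifted arrays 8 were lower and 9 higher. XPA, which verifies damage in that pathway, changed by -4.74 ± 0.23 with Ota (floored -4.03) and 0.04 with Aa, and GTF2H4, a subunit of the helicase complex TFIIH, fell at least 9.26-fold with Ota and rose by 0.73 with Aa, while its controls differed by -0.85.

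DNA replication genes fell in 25 of 45 cases (55.6%, beside 43.8% of all genes) and rose in 2 (4.44%, beside 22.3%) with Ota. They rose in 15 (33.3%, beside 24.6%) and fell in 4 (8.89%, beside 21.8%) with Aa. The difference was lower in 29 (64.4%, beside 41.9% of all genes) and higher in 0 (22 and 9 with shifted arrays). The clamp loader subunit RFC4 fell by 3.74 ± 0.17 with Ota and had -0.19 ± 0.17 with Aa, and RPA2, of the single-strand binding complex, fell by 3.34 ± 0.20 with Ota and had 0.47 with Aa. Of 21 E2F factors and G1 cyclins with their kinases the difference was lower in 11 (52.4%) and higher in 2, with E2F7 at -4.48 and CDK2 at -3.25 (6 lower and 7 higher with shifted arrays).

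Mitotic genes fell with both compounds: 32 of 50 with Ota, where 5 rose, and 26 with Aa, where 1 rose. The shares that fell were 64% with Ota, beside 43.8% of all genes, and 52% with Aa, beside 21.8%. Of the 50 genes, 18 moved the same way with both. The difference was lower in 24 (48%, beside 41.9% of all genes) and higher in 10, an order that turned with shifted arrays (11 lower and 18 higher). The kinase AURKB and the phosphatase CDC25B, which set off mitosis, had differences of -3.78 and -3.54. MKI67, the proliferation marker Ki-67, had 7.61, 7.84 and 8.32 with Ota, against 11.28, 11.36 and 11.12 in Ota controls, and 11.63, 11.44 and 11.49 with Aa, against 11.54, 11.58 and 11.87 in Aa controls. Only the Ota arrays stood apart, with a difference of -3.19 ± 0.25 (adjusted p = 2.19e-11).

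In the oxidant and amino acid stress lists more members rose with Aa than with Ota. Of 26 NRF2 targets 8 rose and 6 fell with Ota, and 16 rose and 1 fell with Aa. The shares that rose were 30.8% with Ota, beside 22.3% of all genes, and 61.5% with Aa, beside 24.6%. The difference was lower in 11, or 42.3%, which is the background share of 41.9%, and higher in 4 (7 lower and 9 higher with shifted arrays). HMOX1, which breaks down heme, fell by 1.04 ± 0.32 with Ota and rose by 1.11 ± 0.32 with Aa, a difference of -2.15 ± 0.45 (adjusted p = 0.000171). KEAP1, the inhibitor of NRF2, fell by 1.17 with Ota and rose by 1.13 with Aa, and the aldo-keto reductase AKR1C3 had a difference of -2.44. The differences of NQO1 (-0.47, 95% interval -1.32 to 0.38) and the cystine carrier SLC7A11 (-0.52, interval -1.62 to 0.59) were not called.

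Among 30 ATF4 and amino acid stress genes the difference was lower in 14 (46.7%, beside 41.9% of all genes) and higher in 1 (11 and 6 with shifted arrays). After Ota 7 rose and 14 fell, and after Aa 13 rose and 2 fell. The shares that rose were 23.3% with Ota, beside 22.3% of all genes, and 43.3% with Aa, beside 24.6%. DDIT3, the stress factor CHOP, had 6.31, 5.12 and 7.70 with Ota, against 7.62, 7.72 and 7.45 in Ota controls, and 9.44, 9.25 and 9.16 with Aa, against 7.78, 7.96 and 7.95 in Aa controls. The Ota arrays overlapped their controls, the Aa arrays lay above all others, and the difference was -2.60 ± 0.51 (adjusted p = 7.42e-05). The amino acid carrier SLC1A4 had a difference of -3.25, CTH, an enzyme that makes cysteine, one of -2.72, and the pseudokinase TRIB3 one of -1.34.

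Asparagine synthetase, ASNS, rose by 0.86 and 0.83 with a difference of 0.04 (95% interval -0.60 to 0.68). The stress factor ATF3 rose by 4.01 ± 0.41 with Ota (floored 3.80) and 5.40 ± 0.41 with Aa. Its difference of -1.39 ± 0.58 (adjusted p = 0.0415) was lost without Ota high dose replicate 1 or 3 (adjusted p = 0.0756 and 0.0588), Ota control replicate 3 (0.170), Aa high dose replicate 1 or 3 (0.0841 and 0.0535) or Aa control replicate 1 or 2 (0.0910 and 0.0857). It was also lost after quantile normalization (0.111), with shifted arrays (0.308) and without the filter (0.0582).

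Of 34 interferon-stimulated genes, 7 rose and 13 fell with Ota, and 16 rose and 2 fell with Aa. The share that fell with Ota, 38.2%, was under that of all genes (43.8%), and the share that rose with Aa, 47.1%, was above it (24.6%). The difference was lower in 17 (50%, beside 41.9% of all genes) and higher in 3, and lower in 9 and higher in 7 with shifted arrays. RIGI, a sensor of foreign RNA, fell at least 14.3-fold with Ota and had 0.16 with Aa, and IRF9, of the interferon-activated transcription complex, fell by 2.57 ± 0.23 with Ota and rose by 1.42 ± 0.23 with Aa. Immediate early genes, which growth factors switch on, had a lower difference in 16 of 27 cases (59.3%, beside 41.9% of all genes) and a higher one in 1. After quantile normalization 12 were lower and 2 higher, and with shifted arrays 9 were lower and 6 higher. The AP-1 subunit JUND had 7.51, 6.78 and 8.79 with Ota, against 12.04, 11.95 and 12.17 in Ota controls, and 12.37, 12.19 and 12.09 with Aa, against 12.08, 11.80 and 11.77 in Aa controls. Its difference was -4.69 ± 0.38 (adjusted p = 2.78e-11), and that of FOSL2 was -3.32 ± 0.26.

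**Figure D4:**
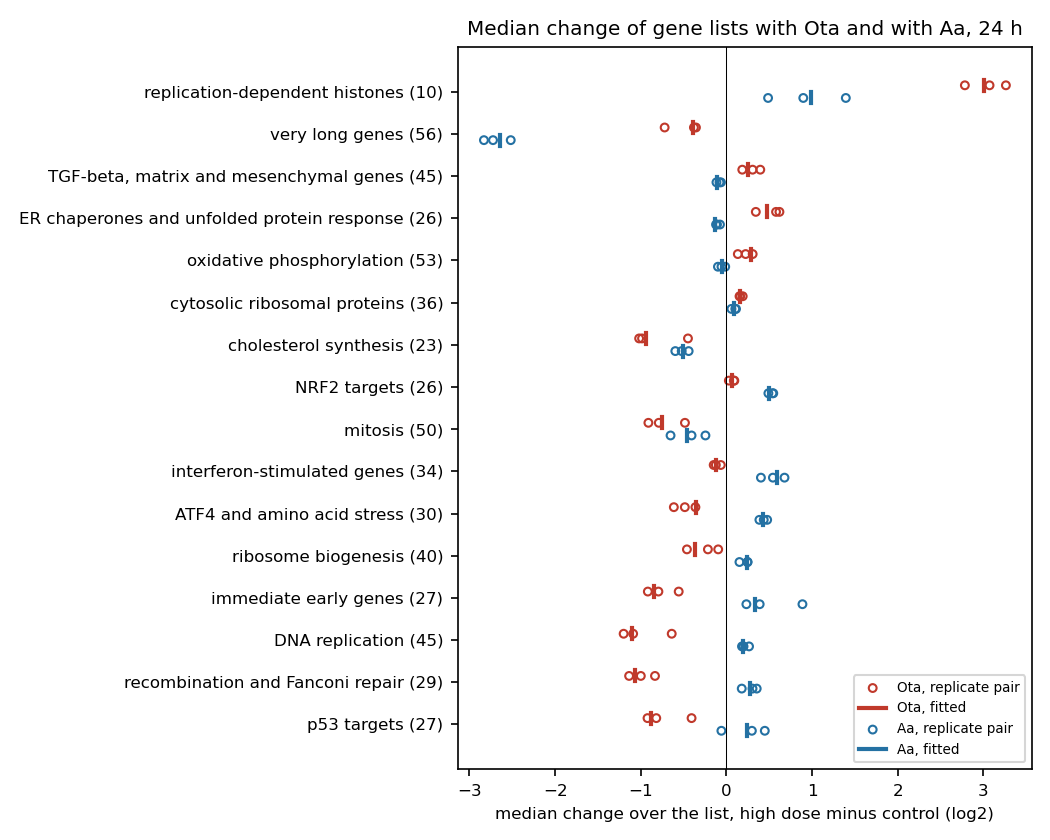
Median log2 change over 16 gene lists (number of tested members in brackets), high dose minus control at 24 h; circles are single replicate pairs, bars the fitted values, red for Ota above blue for Aa. Histones lie highest with Ota (3.01) and very long genes lowest with Aa (-2.64), and p53 targets, repair and DNA replication lists lie below 0 with Ota. The histone median includes 4 of 10 members that passed the filter only through the Ota high dose arrays.

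A smaller set of lists stood higher after Ota at 24 h, with counts at 72 h given below. Of 26 ER chaperone and unfolded protein genes 14 rose (53.8%, beside 22.3% of all genes) and 2 fell (7.69%, beside 43.8%) with Ota. With Aa 2 rose (7.69%, beside 24.6%) and 4 fell (15.4%, beside 21.8%). The difference was higher in 13 (50%, beside 19% of all genes) and lower in 1 (21 and 1 with shifted arrays). The list's median difference was 0.56, beside -0.35 over all genes. ATF6, an ER stress sensor, rose by 0.97 ± 0.22 with Ota and fell by 1.11 ± 0.22 with Aa. The co-chaperone DNAJC3 rose by 1.13 ± 0.26 with Ota and had -0.58 with Aa. The disulfide isomerase PDIA6 averaged 13.31 ± 0.04 with Ota and 12.50 ± 0.10 in Ota controls, and 12.28 ± 0.03 with Aa and 12.48 ± 0.06 in Aa controls (SD, n = 3 each), a difference of 1.01 ± 0.15 (adjusted p = 1.73e-06). The 1 member with a lower difference was XBP1 (-1.48 ± 0.28, adjusted p = 4.83e-05), while its controls differed by 0.78. Another probe set of XBP1 was called the other way. HSPA5, the central ER chaperone BiP, fell with Ota against the list, but its difference of -0.55 was not called (adjusted p = 0.0706). With shifted arrays that difference was 0.16. HSPA5 averaged 11.64 ± 0.10 with Ota and 12.71 ± 0.28 in Ota controls, and 12.33 ± 0.14 with Aa and 12.84 ± 0.24 in Aa controls. It fell with both by the probe set used, while another set was called higher in the difference. PDIA6 and HSPA5 were picked for their promoters after their values were seen.

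The ER stress element, which ATF6 is known to bind with the factor NF-Y, was searched on both strands. It lay in the start windows of 7 of the 23 list members that had one, and in 0.0769% of all windows, a count of genes beside one of windows. It was present in PDIA6 (chr2:10812736-10813035, minus strand, 1 of its 2 windows) and in HSPA5 (chr9:125241294-125241593, minus strand), so the same element stood in a gene that rose and in one that fell with Ota. Both windows are shown with the match in capitals.
PDIA6: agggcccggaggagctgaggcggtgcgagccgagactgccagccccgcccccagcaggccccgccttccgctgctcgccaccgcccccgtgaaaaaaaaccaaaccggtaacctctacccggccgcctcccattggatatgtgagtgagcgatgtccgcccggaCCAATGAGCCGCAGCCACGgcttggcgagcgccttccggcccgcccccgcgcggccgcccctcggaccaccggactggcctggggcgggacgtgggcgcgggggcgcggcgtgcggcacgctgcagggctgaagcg
HSPA5: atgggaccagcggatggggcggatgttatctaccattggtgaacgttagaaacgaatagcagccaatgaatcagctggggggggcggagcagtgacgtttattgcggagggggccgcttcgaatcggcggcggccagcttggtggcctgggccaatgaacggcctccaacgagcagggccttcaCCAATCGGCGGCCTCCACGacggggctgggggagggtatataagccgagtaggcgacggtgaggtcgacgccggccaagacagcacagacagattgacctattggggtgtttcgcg

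Of 45 matrix and mesenchymal genes of the TGF-beta list, 19 rose (42.2%, beside 22.3% of all genes) and 7 fell (15.6%, beside 43.8%) with Ota. With Aa 4 rose (8.89%, beside 24.6%) and 11 fell (24.4%, beside 21.8%). The list had a higher difference in 21 (46.7%, beside 19% of all genes) and a lower one in 5 (33 and 1 with shifted arrays). The list's median difference was 0.81. PLAT, tissue plasminogen activator, rose by 1.70 ± 0.63 with Ota and fell by 1.85 ± 0.63 with Aa, and TGFBR3, a TGF-beta co-receptor, rose by 1.22 ± 0.29 with Ota and changed by -1.91 ± 0.29 with Aa. The collagen COL1A1 went the other way, with a difference of -1.42 ± 0.46 (adjusted p = 0.00887), which was not called after quantile normalization (adjusted p = 0.0688), the shift (0.128), array weights (0.0502) or averaging of probe sets (0.280). CD44, a hyaluronan receptor raised in injured tubules, rose by 1.71 ± 0.20 with Ota and had -0.10 with Aa. VCAM1, an adhesion molecule, changed by -3.84 with Ota and by -2.11 with Aa, while its controls differed by 1.19. The injury marker HAVCR1, or KIM-1, had -0.43 with Ota and fell by 1.08 with Aa, and its difference of 0.65 (95% interval -0.16 to 1.47) was not called, though it was with shifted arrays (1.36, adjusted p = 0.00479), array weights (0.74, 0.0259) or only the 12 arrays in the fit (0.0142).

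Of 53 oxidative phosphorylation genes, 26 rose (49.1%, beside 22.3% of all genes) and 6 fell (11.3%, beside 43.8%) with Ota. With Aa 1 rose (1.89%, beside 24.6%) and 5 fell (9.43%, beside 21.8%). The difference was higher in 22 (41.5%, beside 19% of all genes) and lower in 2. The list median was 0.32, beside -0.35 over all genes, and with shifted arrays it was 1.03, beside 0.36. With shifted arrays 49 of the 53 genes were higher, beside 4657 of all 10960. NDUFS4, a subunit of complex I, rose by 0.39 ± 0.16 with Ota and fell by 0.96 ± 0.16 with Aa. The succinate dehydrogenase subunit SDHA went the other way, by -0.78 ± 0.19, which was -0.07 and not called with shifted arrays. Of 36 cytosolic ribosomal proteins 13 rose (36.1%, beside 22.3% of all genes) and 0 fell with Ota, and 1 rose with Aa. The difference was higher in 4 (11.1%, under the 19% of all genes) and lower in 0 (41.9% of all). With shifted arrays it was higher in 36, beside 4657 of all 10960. Ribosome biogenesis factors differed from the ribosomal proteins, with the difference lower in 20 of 40 (50%, beside 41.9% of all genes) and higher in 6 (11 and 14 with shifted arrays).

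Cholesterol synthesis genes fell with both compounds, 14 of 23 with Ota and 13 with Aa, with 1 and 0 rising. The shares that fell were 60.9% with Ota, beside 43.8% of all genes, and 56.5% with Aa, beside 21.8%. HMGCS1, at the entry to the pathway, had 9.69, 9.59 and 9.77 with Ota, against 11.02, 10.59 and 11.26 in Ota controls, and 9.60, 9.37 and 9.17 with Aa, against 10.53, 10.54 and 10.63 in Aa controls. It fell by 1.28 ± 0.19 and 1.19 ± 0.19, with a difference of -0.08 (95% interval -0.63 to 0.46) that turned to 0.63 with shifted arrays (adjusted p = 0.0246). INSIG1, the sterol-dependent brake of the pathway, fell by 1.24 and 1.32. NSDHL, a later enzyme, had a difference of -2.21 ± 0.29. Over the list the difference was lower in 11 (47.8%, beside 41.9% of all genes) and higher in 4, and lower in 2 and higher in 11 with shifted arrays.

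MYC fell with both, by 0.54 and 0.77, with a difference of 0.23 (95% interval -0.21 to 0.68). TXNIP, IL6 and CXCL8 had differences of -0.01, -1.85 and 0.37 that were not called, with wide 95% intervals of -1.45 to 1.42, -4.35 to 0.64 and -0.87 to 1.61. With only the 12 arrays in the fit the difference of IL6 was called (adjusted p = 0.0167).

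The later arrays, Ota at 72 h and Aa at 48 h, were read beside these results without a comparison between the compounds, since the times differ. Ota at 72 h changed 7051 genes (64.3%) and Aa at 48 h 6691 (61%). Of the 308 genes that rose with Ota and fell with Aa at 24 h, 121 were called higher with Ota at 72 h (26.9% of all genes were) and 257 lower with Aa at 48 h (32.9% of all). Of the 937 with the opposite pattern, 391 were called lower with Ota at 72 h (37.5% of all) and 680 higher with Aa at 48 h (28.2% of all). For Ota, the later share of the second class, 41.7%, was near that of all genes. Both later calls were the same way in 92 and 251 genes, counts that have no share over all genes to be set beside.

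ARID1B and CELF2 had 2.14 ± 0.28 and 3.84 ± 0.39 with Ota at 72 h, and -3.17 and -2.47 with Aa at 48 h. TRPS1 had 0.17 with Ota at 72 h, and RDH13 had 0.44, with 1.99 for RDH13 under Aa at 48 h. CLK2 and SLC22A15 had -1.39 and -3.04 with Ota at 72 h and 2.04 and 1.89 with Aa at 48 h. Among the genes that fell with Ota alone, RRP36 had -1.28 at 72 h, CHEK1 -1.02 and MKI67 0.77, a rise. Of 45 DNA replication genes 22 rose and 8 fell with Ota at 72 h, and of 50 mitotic genes 30 rose and 7 fell. Most called members of these lists had fallen at 24 h. Of 29 recombination and Fanconi repair genes 11 rose and 9 fell with Ota at 72 h. The 350 longest genes had a median of -0.47 with Ota at 72 h and -2.62 with Aa at 48 h. Of the 10 histones, 10 rose with Ota at 72 h and 10 with Aa at 48 h. Some lists that stood higher after Ota at 24 h had more falls than rises with Ota at 72 h. Of 26 ER genes 1 rose and 17 fell, and of 53 oxidative phosphorylation genes 15 and 22. Of 36 cytosolic ribosomal proteins, not counted among those lists, 3 rose and 24 fell. Of 45 TGF-beta list genes 20 rose and 9 fell. Of all tested genes 26.9% rose and 37.5% fell with Ota at 72 h.

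**Figure D5:**
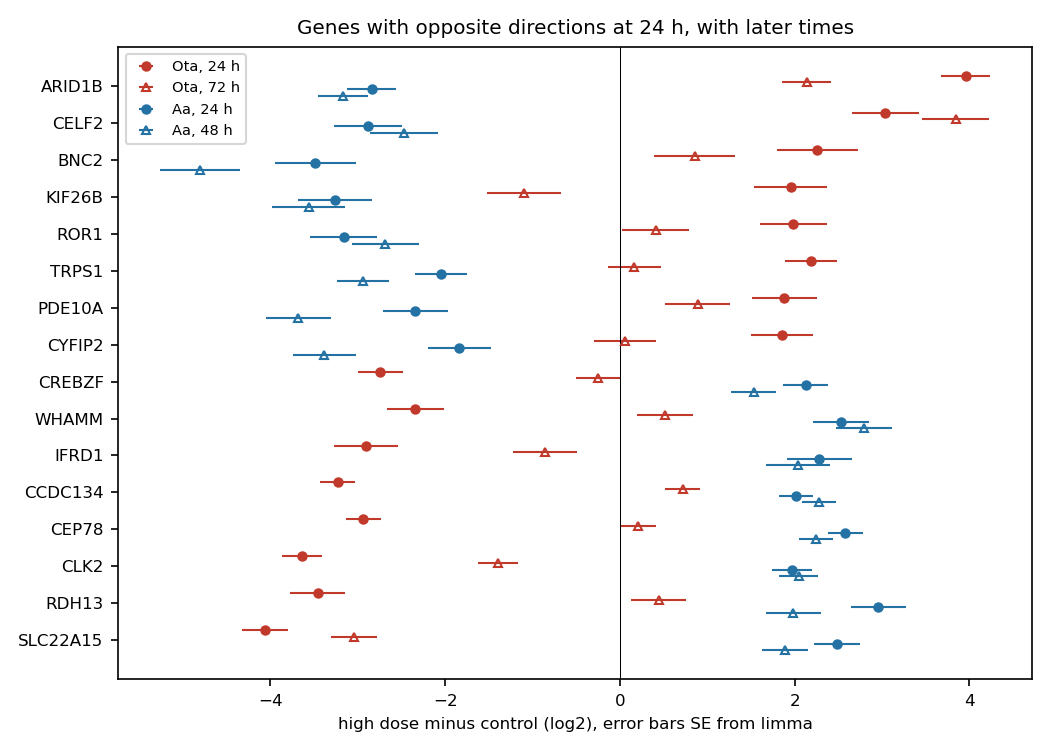
Log2 change, high dose minus control, of the 16 named genes with opposite directions at 24 h (filled circles), with Ota at 72 h and Aa at 48 h (open triangles); error bars are SE from limma. The Aa changes kept their sign at 48 h in all 16 genes, and the Ota changes of KIF26B, WHAMM, CCDC134, CEP78 and RDH13 had the other sign at 72 h.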

How the data were processed

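Total RNA from HK-2 cultures was hybridised as biotin-labelled cRNA to Affymetrix arrays, 1 array per culture. The authors deposited log2 values per probe set. The submitters' processing notes name GCRMA for them, with no version given in the sources used here. That method models background by probe sequence and normalizes the arrays it is run on together. Whether all 36 arrays were run together is not given in the sources used here, so differences between arrays may hold a difference of scale, and a broad loss of RNA can be partly scaled away. Array batches were not tested.

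Of 54675 probe sets, 62 control sets were left out, 41091 had 1 gene symbol, 1801 several and 11721 none in the platform annotation, and 41037 matched RefSeq. Each of 19775 genes was represented by the probe set with the highest mean over all arrays (sets ending in _x_at only without another). Genes over a log2 value of 4 on 3 or more of the 12 arrays were kept, which left 10960. Values at or under 4 have no dependable order: "at least" folds set the dimmer group at 4 or its own higher value, and "floored" changes have values at or under 4 set to 4.

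Means of the 12 groups of the series were fitted to all 36 arrays by lmFit and eBayes (limma 3.58.1, R 4.3.3; 24 residual degrees of freedom), two-sided, with Benjamini-Hochberg adjustment. The number of arrays limits the precision. Deviations of high dose and control arrays of the same replicate number correlated at 0.111 to 0.235 for Ota and 0.383 to 0.566 for Aa, so the numbers pair the samples.

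Members of the comparison, gene lists and the rule for named genes were chosen with earlier results of these data known. The rule, ranking changes with values at or under 4 set to 4 and passing over loci without a gene name, took the 10 largest called differences each way, the 8 largest genes of each opposite and shared class, the 5 largest of each class called with 1 compound, the 2 members of each list with the largest called difference, and a few stress genes. Lists have no test here. Alternatives covered normalization, filters, floors, probe sets, weights, a replicate block and each array left out. Tables and plots used Python 3.11.15 and matplotlib 3.10.9.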

Additional observations from a re-analysis of the deposited data

Results flagged for a closer look

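The test of the difference between the Ota and Aa high dose effects at 24 h called 6673 genes. The named genes of opposite direction are listed because that test called each of them while both effects were called in different directions. The difference, Ota effect minus Aa effect on the log2 scale, was 6.80 in ARID1B, 5.92 in CELF2, 5.74 in BNC2, 5.21 in KIF26B and 5.15 in ROR1. With values at or under 4 set to 4 these were 6.30, 4.97, 5.27, 4.14 and 4.38. TRPS1, PDE10A and CYFIP2 had 4.24, 4.22 and 3.69 either way. The difference was -6.42 in RDH13 (floored -6.00), -5.61 in CLK2 (floored -5.44), -5.25 in CCDC134 (floored -5.19), -5.19 in IFRD1, -4.87 in WHAMM (floored -4.77) and -4.87 in CREBZF. In SLC22A15 the fitted -6.54 rests on Ota values under the background level and was -4.63 floored, and in CEP78 the fitted -5.52 was -4.95 floored. All 16 were called in every alternative that tested them. The Ota high dose arrays had the lowest medians of the 4 groups (7.49 to 7.81, against 8.24 to 8.35 in Ota controls), and the part of this in the results was not tested beyond the scaling alternatives.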

How the results depend on the processing

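With the replicate number as a block, the difference was called in 7259 genes, 2393 higher and 4866 lower, and all 158 named genes kept their call and direction. Under all 22 alternatives 129 of the 158 did. Without the filter, 10168 genes were called, 5510 of them higher, and 3381 rose with Ota alone. With arrays shifted to the same median, 4657 were higher and 2849 lower, 962 rose with Ota and fell with Aa, 493 did the opposite (121 of them called the same way at both later times; of the first pattern, 300), 1395 rose with both, 2447 rose and 1309 fell with Ota alone, and 388 rose with Aa alone. Array weights gave 473 genes that rose with Ota and fell with Aa, and a fit to only the 12 arrays called 145 genes between controls.

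The span alternatives were chosen after seeing the data. For genes over 300 kb the Ota median was 0.057 without the filter, 0.12 after quantile normalization, 0.43 with shifted arrays, -0.11 over the mean of probe sets and -0.063 with weights. It was -0.243 to -0.0714 with 1 array left out, the highest without Ota high dose replicate 2. The Aa median was -0.067 without the filter, -2.15 above a level of 6, -1.81 with the filter over 36 arrays, -1.72 floored and -1.28 over the mean of probe sets. The median difference was 0.22, 1.52, 1.36 and 1.24 without the filter, with the 36-array filter, floored and over the mean of probe sets, 1.97 after quantile normalization and 2.40 shifted.

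The sign of the difference turned in PAPOLG (0.615), MT1E (0.055) and HMGCS1 (0.63) with shifted arrays, and in SNX1 (-1.48), MXD1 (-0.57) and SCNN1A (0.0225) with probe sets averaged. The cause was not tested. With 1 array left out, 6329 to 6817 genes were called. Low signal limits genes at or under 4, for which only bounds hold.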
